A study of Mus musculus with 9 samples.

Results

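The stromal vascular fraction (SVF) of subcutaneous fat was compared between 3 mice taken on day 3 after priming and 3 mice taken on day 0, which are 6 of the 9 arrays of the series, chosen by the day in their labels. All mice were wild type, of strain Balb/c and 10 weeks old, and the fraction came from inguinal fat. The labels of both groups name priming and the day after injury, and the labelled treatment is surgical injury of the inguinal fat. The study's results treat day 0 as the nonprimed state to which day 3 is compared. In the study's methods, priming is mincing of the fat together with ligation of its feeding artery, whereas the labels name no ligation, so the groups are called here by their day. The other 3 arrays, of day 1, are used for the estimate of the spread and are given beside some genes for the course over time. Each array measured 1 preparation of a tissue made of many cell types, so fewer cells of a type and less RNA per cell cannot be told apart.

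Fat depots hold, beside the adipocytes, fibroblast-like progenitors, endothelial cells, pericytes and resident leukocytes, and digestion with enzymes frees these cells as the SVF. After a wound, neutrophils enter first, monocytes follow and become macrophages that clear debris, and fibroblasts divide, migrate and lay down a provisional and then a collagen-rich matrix. Cells that divide express the genes of mitosis as a block, since these are transcribed late in the cell cycle under shared promoter elements.

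Of 45101 probe sets, the groups of short probes against a transcript, between 25677 and 26299 had a present call by MAS5 on day 0, and between 25069 and 25292 on day 3. Within a day, the arrays' log2 signals correlated at 0.9776 to 0.9879, and between the days at 0.927 to 0.9389, across genes, which are not independent replicates. Of the defining markers of the fraction, the leukocyte gene Ptprc, the progenitor genes Pdgfra and Cd34, the endothelial genes Pecam1 and Cdh5, the pericyte gene Rgs5 and the macrophage gene Adgre1 were present on all 6 arrays. The keratin genes Krt5 and Krt14 of epithelium were present on 0 of them. The adipocyte hormone Adipoq had signals of 693, 463 and 415 on day 0 and 230, 460 and 235 on day 3, and it was present on all 6 arrays although floating adipocytes are removed from the fraction. The skeletal muscle actin Acta1 was present as well, at 191, 345 and 444 on day 0 and 543, 790 and 354 on day 3, a change of 0.79 ± 0.35 (adjusted p = 0.12). With Acta1, all 9 tested muscle genes were below the limits for a call, and their part in the results below was not tested.

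A gene was called when its adjusted p was under 0.05 and its change was 2-fold or more. By this rule, 524 of 11796 genes rose and 410 fell, which is 4.44% and 3.48%, or 7.92% in all. With no limit on the fold these shares were 13.6% and 12.5%. Over all genes the median change was -0.03 on the log2 scale, and for 47.2% of genes the signals of both days did not overlap. Rises reached further than falls: 145 genes were higher and 25 lower by 4-fold or more, and 52 were higher and 2 lower by 8-fold or more. Changes of single genes are given as log2 differences with limma's standard error, for 3 mice per day. For a gene with no present call on the dimmer day, "at least" stands before the fold. This fold was computed per array against the gene's own signal or, where that is higher, the lowest signal with a present call. It leaves out sampling error, and that lowest signal is not the detection limit of the gene's own probe set. The fold is therefore not a strict lower bound. For each gene list the counts, and for most lists the median change, stand beside these values over all genes. No test was made of a list.

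**Figure D1:**
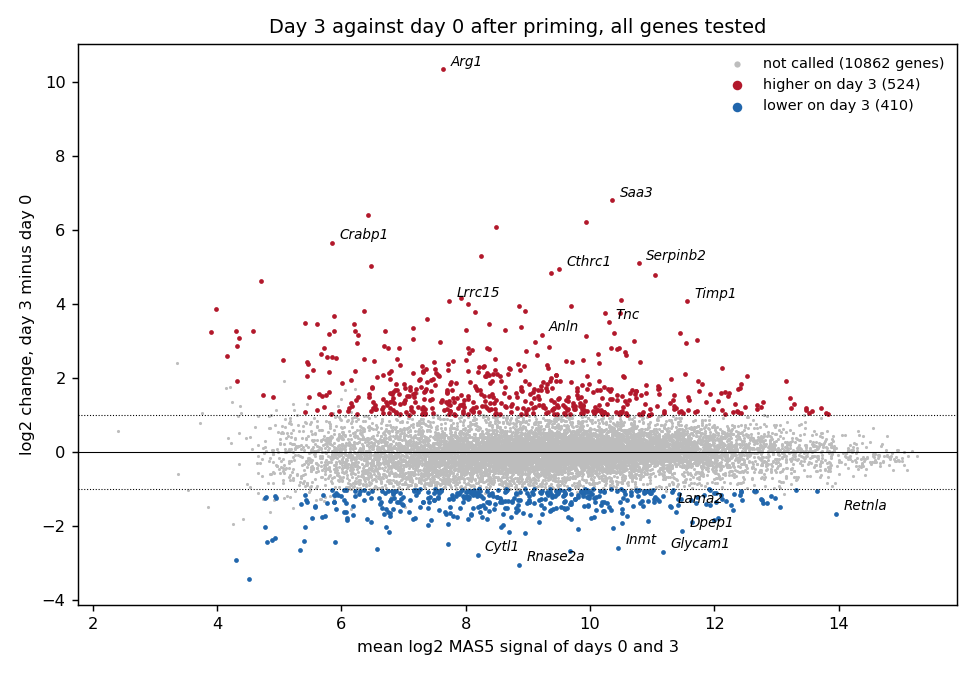
Change from day 0 to day 3 (y axis, log2) against the mean log2 MAS5 signal of both days (x axis), 1 dot per gene. Red dots are the 524 genes called higher, blue dots the 410 called lower, and dotted lines mark 2-fold. Rises extend to 10.34 for Arg1, while the fall of Rnase2a is -3.04.

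Most genes of mitosis rose. Of 46 tested genes of mitosis and chromosome segregation, 37 were higher on day 3, 0 were lower, and all 46 had a positive change, with a median of 1.62. Without shared probe sets, whose suffix marks probes that can also match related transcripts, 24 of 34 were higher. Among the genes present on all 9 arrays, which leaves out those that passed the filter through their bright day alone, 26 of 35 were higher. The mean log2 signal of the list, relative to day 0, was 1.53, 1.56 and 1.55 in the mice of day 3. On day 1 the median change of the same list was -0.12.

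Promoters are shown for the member with the largest change, Anln, and for 4 others among its regulators of division, because most members rose. The table of RefSeq promoters (build GRCm38.p6) matched 41 of the 46 genes with 46 promoters of 300 bases each. The cell cycle homology region, TTTGAA, was found on either strand in 69.6% of these promoters and in 17.9% of all 32851 promoters of that length (12.1% of those of the genes tested). The CCAAT box, CCAAT, was in 78.3% and in 37.4% (37.1%). Among the promoters of list members that were called, 67.6% held TTTGAA, and among those of members that were not called 77.8% did. In the 120 bases before the start site, with both motifs in capitals on either strand (TTCAAA and ATTGG are their reverse complements), and with no overlap between the motifs, the promoters read as follows. For Ect2 the first start site of the table is shown, and the stretch before its other start site holds CCAAT boxes but no TTTGAA. These matches are a description of letters and not of bound sites.
Cdk1, chr10:69352913-69353032, minus strand: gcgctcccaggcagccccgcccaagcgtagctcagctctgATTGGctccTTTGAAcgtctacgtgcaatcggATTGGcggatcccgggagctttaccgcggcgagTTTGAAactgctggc
Ube2c, chr2:164769809-164769928, plus strand: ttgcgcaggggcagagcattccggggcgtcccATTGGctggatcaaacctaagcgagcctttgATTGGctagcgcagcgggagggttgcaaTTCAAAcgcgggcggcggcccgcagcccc
Ect2, chr3:27153879-27153998, minus strand: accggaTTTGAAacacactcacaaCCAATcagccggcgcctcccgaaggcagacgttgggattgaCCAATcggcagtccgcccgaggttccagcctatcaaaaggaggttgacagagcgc
Plk1, chr7:122159315-122159434, plus strand: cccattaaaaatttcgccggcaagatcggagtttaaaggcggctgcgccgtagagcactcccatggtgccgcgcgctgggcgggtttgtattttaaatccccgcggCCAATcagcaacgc
Anln, chr9:22389207-22389326, minus strand: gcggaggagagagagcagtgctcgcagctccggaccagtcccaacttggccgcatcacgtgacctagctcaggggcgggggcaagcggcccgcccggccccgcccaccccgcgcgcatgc

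Cdk1, the kinase that drives entry into mitosis, had signals of 355, 307 and 201 on day 0 and 1432, 1442 and 1409 on day 3. It rose by 2.35 ± 0.24 (adjusted p = 4.24e-05), and its signals on day 1 were 402, 439 and 246. The mice of day 3 thus stood above those of both earlier days, with 2.02 ± 0.24 between day 1 and day 3 (adjusted p = 0.000323). Ube2c, the ubiquitin-conjugating enzyme of the anaphase-promoting complex, went from 422, 190 and 303 to 1444, 1578 and 1219, a rise of 2.28 ± 0.25 (adjusted p = 8.37e-05). Ect2, which activates RhoA at the site of cell division, went from 197, 121 and 103 to 646, 621 and 706, a rise of 2.29 ± 0.22 (adjusted p = 3.07e-05). Plk1, a kinase of spindle assembly, was present on 0 day 0 arrays, with signals of 164, 101 and 112, and reached 426, 391 and 354 on day 3, at least 3.18-fold higher (adjusted p = 0.000263). In these promoters Cdk1 and Ube2c hold both motifs, as does Ect2, while the stretch of Plk1 holds a CCAAT box alone and that of Anln neither motif. In the whole window of 300 bases Plk1 and Anln hold TTTGAA too.

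The largest change of the list was that of Anln, a scaffold protein of the cleavage furrow. Its signals were 194, 192 and 211 on day 0 and 1777, 1777 and 1805 on day 3, a rise of 3.17 ± 0.12 (adjusted p = 3.41e-08). The groups lay far apart and hardly varied within a day. Cenpe, the kinesin of the kinetochore, rose by 2.33 ± 0.33 (adjusted p = 0.000436). Mki67, the common marker of dividing cells, went from 916, 707 and 516 to 2273, 2477 and 2059, a rise of 1.71 ± 0.19 (adjusted p = 8.24e-05). Top2a, which untangles DNA before segregation, rose by 1.46 ± 0.13 (adjusted p = 1.47e-05) by its brightest probe set, while without shared probe sets its change was -0.22 (adjusted p = 0.532).

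Of 40 tested genes of DNA replication, 7 were higher and 0 lower, with a median of 0.38. When 64 was added to all signals, 4 of them were higher. Tk1, the thymidine kinase of S phase, had signals of 201, 218 and 176 on day 0 and 845, 892 and 796 on day 3, a rise of 2.09 ± 0.16 (adjusted p = 5.27e-06). Rrm2, the regulated subunit of ribonucleotide reductase, rose by 1.54 ± 0.15 (adjusted p = 3.09e-05), and its partner Rrm1 changed by 0.76 ± 0.12, below the 2-fold limit. Gins2, of the replicative helicase, rose by 1.84 ± 0.25 and the exonuclease Exo1 by 1.73 ± 0.24 (adjusted p = 0.000304 and 0.000365). Other factors of the list did not reach the limits. The sliding clamp Pcna read 10934, 14623 and 13208 on day 0 and 11908, 11432 and 12495 on day 3, a change of -0.10 ± 0.12 (adjusted p = 0.56). Days overlapped for Pcna. The helicase subunits Mcm2 and Mcm5 changed by 0.08 ± 0.15 and 0.70 ± 0.11. The E2F motif TTCCCGC was in 38.5% of 39 promoters matched to 32 genes of this list and in 4.6% of all promoters (7.95% of those of the genes tested), and the E2F motif TTGGCGC was in 23.1% and in 2.45% (4.11%). In the 5 promoters of members called higher they were in 20% and 0%, and in the 34 of members not called in 41.2% and 26.5%.

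Among 30 regulators of the G1 phase, 7 were higher and 1 lower, with a median of 0.37 (4 higher with 64 added). The repressor E2f8 rose by 1.61 ± 0.27 and the S phase cyclin Ccna2 by 1.42 ± 0.17 (adjusted p = 0.00131 and 0.000128). Ccne2, a cyclin of the G1 to S transition, rose by 1.35 ± 0.27, Skp2, which marks the inhibitor p27 for destruction, by 1.20 ± 0.17 and the kinase Cdk6 by 1.16 ± 0.15. The inhibitor Cdkn1c, which holds cells out of the cycle, went the other way, from 990, 1444 and 1148 to 355, 505 and 389, a change of -1.52 ± 0.22 (adjusted p = 0.000541). The p53 target Cdkn1a changed by 0.06 ± 0.11 and cyclin D1, Ccnd1, by 0.61 ± 0.11. Of 11 histone and chromatin assembly genes 0 were called, and among them the chaperone Asf1b changed by 0.79 ± 0.14 and the remodeler Hells by 0.98 ± 0.16.

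**Figure D2:**
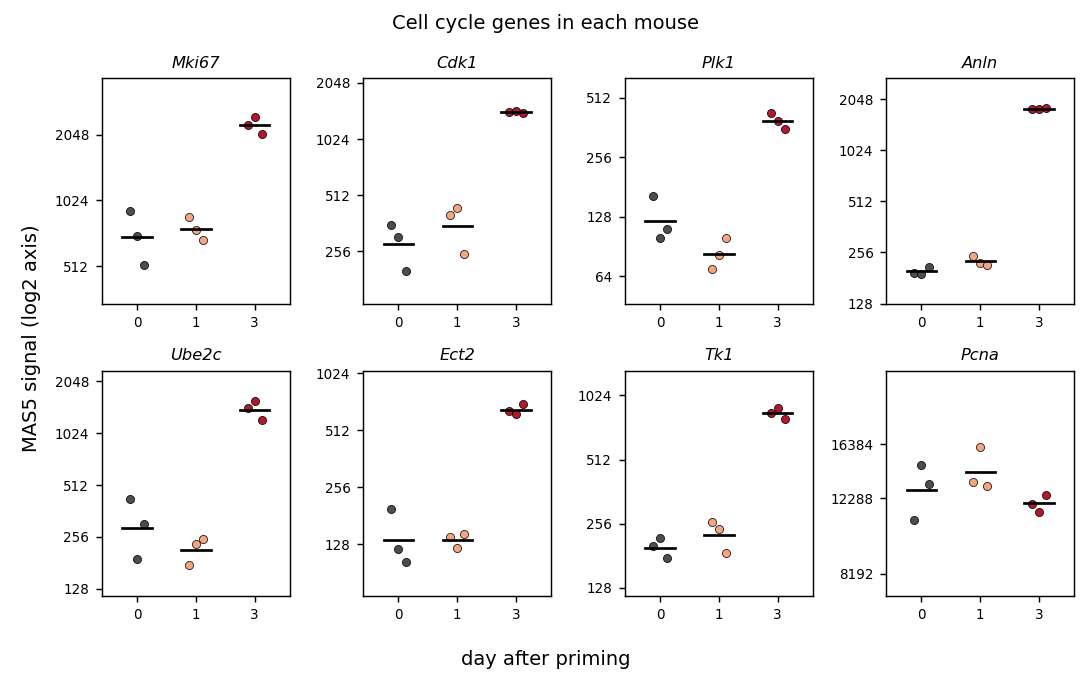
MAS5 signals (y axis, log2 axis) of 8 cell cycle genes in each mouse on days 0, 1 and 3 (x axis). Each dot is 1 mouse and each bar the mean of the log2 signals of a day. In Cdk1 the 3 mice of day 3 lie between 1409 and 1442, above those of days 0 and 1, whereas the days overlap in Pcna.

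Some fibroblast genes of repair were among the large rises. Of 34 tested genes of activated fibroblasts and myofibroblasts, 12 were higher, 0 lower and 22 not called, with 10 negative changes and a median of 0.43 (8 of 29 were higher among genes present on all 9 arrays). Cthrc1, a secreted protein of fibroblasts in repair, had signals of 120, 163 and 115 on day 0 and 3907, 4560 and 3654 on day 3, a rise of 4.94 ± 0.17 (adjusted p = 1.6e-08). It stood at 812, 739 and 618 on day 1, between both days. Lrrc15, a membrane protein of myofibroblasts, had signals of 62.8, 41.8 and 53.3 on day 0, 32.7, 58.7 and 74.2 on day 1 and 938, 890 and 806 on day 3. It rose by 4.08 ± 0.28 from day 0 (adjusted p = 3.41e-06) and by 4.07 ± 0.28 from day 1 (adjusted p = 1.27e-05). Days 0 and 1 overlapped for Lrrc15. Crabp1, a retinoic acid binding protein, was present on 0 day 0 arrays and at least 29.8-fold higher on day 3 (adjusted p = 0.000138), and Inhba, the activin A subunit, was at least 13.8-fold higher (adjusted p = 3.71e-05). Acta2, the smooth muscle actin that defines contractile myofibroblasts, read 6449, 7489 and 8179 on day 0 and 9127, 9794 and 8361 on day 3, a change of 0.31 ± 0.13 (adjusted p = 0.101).

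Of 18 collagen genes, 4 were higher and 0 lower, with a median of 0.31, against -0.41 on day 1. Col12a1, a collagen that links fibrils, went from 621, 379 and 645 to 3690, 4261 and 3381, a rise of 2.82 ± 0.24 (adjusted p = 1.49e-05). Col1a1, the main chain of fibrillar collagen, went from 6181, 3194 and 4423 to 9517, 11230 and 8880, a rise of 1.15 ± 0.22 (adjusted p = 0.00344). Its mice on day 1 read 2954, 2032 and 3133, below all mice of the other days. Col8a1, a short-chain collagen of vessels, rose by 1.44 ± 0.16 and Col18a1, the basement membrane collagen that yields endostatin, by 1.09 ± 0.13. Col3a1 changed by 0.02 ± 0.08 at signals of 35188 to 40292, while another of its probe sets changed by 0.94.

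Enzymes that modify and crosslink collagen rose in 6 of 18 genes and fell in 1, with a median of 0.61. Plod2, the lysyl hydroxylase of telopeptides, had signals of 421, 484 and 562 on day 0 and 2981, 4379 and 3095 on day 3, a rise of 2.82 ± 0.25 (adjusted p = 1.84e-05). The crosslinking oxidases Lox and Loxl3 rose by 1.84 ± 0.15 and 1.25 ± 0.11 (adjusted p = 8.26e-06 and 2.23e-05). Across the 3 probe sets of Lox the change ran from 0.23 to 1.84. The prolyl hydroxylase subunit P4ha2 rose by 1.41 ± 0.14, and P4ha3, which was present on 0 day 0 arrays, was at least 7.32-fold higher (adjusted p = 4.53e-05 and 0.00435). Pcolce2, an enhancer of procollagen cleavage, changed by -1.57 ± 0.19 (adjusted p = 0.000139).

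Noncollagenous matrix genes divided: 4 of 32 were higher and 2 lower, with a median of 0.01. Tnc, tenascin C of wound matrix, went from 371, 373 and 376 to 3869, 5336 and 3681, a rise of 3.50 ± 0.20 (adjusted p = 1.02e-06). The proteoglycan Vcan rose by 1.40 ± 0.16, thrombospondin Thbs1 by 1.37 ± 0.14 and Fbln2 by 1.07 ± 0.14. The laminin chain of muscle and fat basement membranes, Lama2, went from 3994, 3844 and 4798 to 1503, 1600 and 1424, a change of -1.48 ± 0.12 (adjusted p = 1.05e-05), and the calcium-binding matrix protein Smoc2 changed by -1.88 ± 0.15 (adjusted p = 8.73e-06). Fibronectin, Fn1, changed by 0.06 ± 0.10 by its brightest probe set, while another of its probe sets changed by 0.92.

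Among 26 matrix proteases and their inhibitors, 6 were higher and 2 lower, with a median of -0.002. The largest rise of the list was that of Serpinb2, with 5.09 ± 0.25 (adjusted p = 2.46e-07). Timp1, an inhibitor of metalloproteases, was counted with the activated fibroblasts and not in this list. It went from 556, 844 and 864 to 11067, 14644 and 11830, a rise of 4.07 ± 0.21 (adjusted p = 2.64e-07). Its relatives Timp3 and Timp4 changed by -1.33 ± 0.16 and -1.92 ± 0.29 (adjusted p = 0.000145 and 0.000661). So inhibitors of 1 family moved in opposite directions. Mmp12, the elastase of macrophages, went from 194, 505 and 373 to 1956, 1746 and 1785, a rise of 2.46 ± 0.31 (adjusted p = 0.000201), and it had changed by 0.33 on day 1. The sheddase Adam8 of leukocytes rose by 2.79 ± 0.14 and the collagenase Mmp13 by 1.33 ± 0.26. The gelatinase Mmp9 changed by 0.45 ± 0.23 and the membrane protease Mmp14 by 0.12 ± 0.13, and neither was called.

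**Figure D3:**
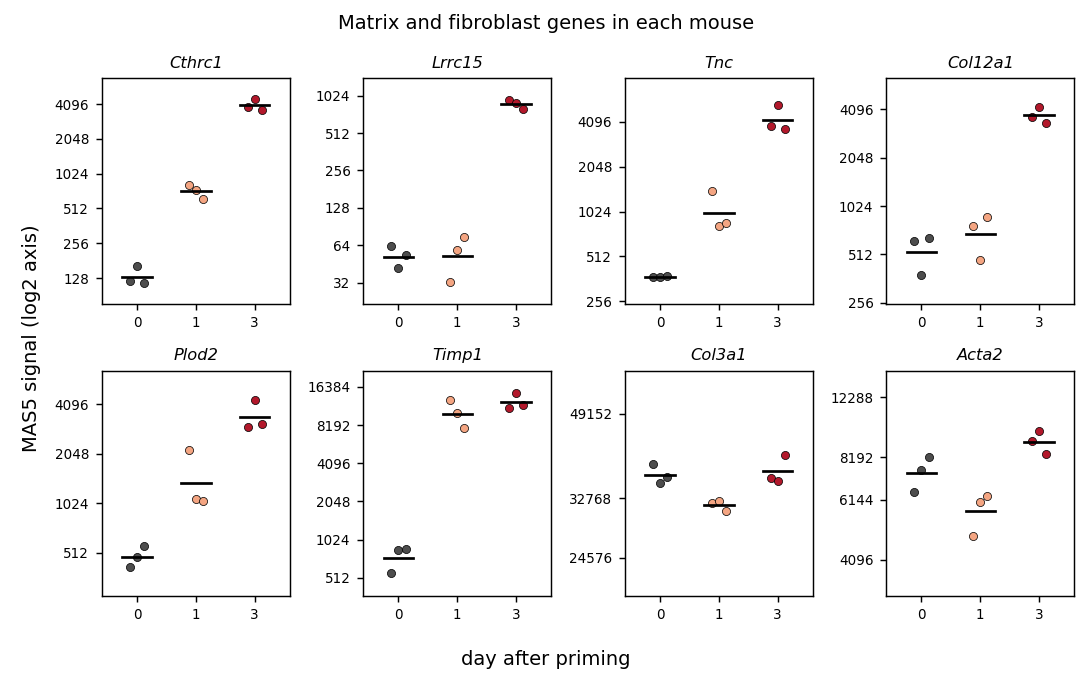
MAS5 signals (y axis, log2 axis) of 8 matrix and fibroblast genes in each mouse on days 0, 1 and 3 (x axis). Each dot is 1 mouse and each bar the mean of the log2 signals of a day. Lrrc15 lies between 32.7 and 74.2 on days 0 and 1 and between 806 and 938 on day 3, while Col3a1 and Acta2 were not called.

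Genes of resting adipose stroma were lower or did not reach the limits. Of 36 tested genes of adipose progenitors and stromal identity, 0 were higher and 3 lower, 29 had a negative change, and the median was -0.36. Clec3b, tetranectin of fibroblasts, went from 10533, 12780 and 12368 to 4945, 5378 and 3512, a change of -1.39 ± 0.17 (adjusted p = 0.000173). Ebf2, a factor of committed brown and beige progenitors, changed by -1.06 ± 0.16 and the adipogenic factor Cebpd by -1.06 ± 0.19. Dpp4, of the interstitial progenitors, changed by -0.94 ± 0.17, below the 2-fold limit, and the common progenitor marker Pdgfra by -0.18 ± 0.14. Cd34 changed by -0.38 ± 0.15 (adjusted p = 0.0753). Of 23 genes of mature adipocytes and lipid storage, 2 were higher and 4 lower (2 lower without day 0 replicate 1), with a median of -0.43. The lipid droplet genes Cidec and Plin4 changed by -1.53 ± 0.24 and -1.14 ± 0.17, and Plin2, the droplet coat of most cells, rose by 1.04 ± 0.09 (adjusted p = 1.02e-05). Mest, an imprinted gene linked to fat expansion, went from 386, 367 and 449 to 2186, 2286 and 2247, a rise of 2.49 ± 0.19 (adjusted p = 4.92e-06).

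Of 24 genes listed for the TGF-beta family, its ligands and antagonists and the target Id1 among them, 1 was higher and 3 lower, with a median of -0.51. Without day 0 replicate 2 and without day 3 replicate 2, 6 and 5 were lower. Inhbb, the activin B subunit, went from 513, 477 and 493 to 2449, 2752 and 2634, a rise of 2.40 ± 0.12 (adjusted p = 3.06e-07). The ligand Bmp4 went from 502, 501 and 559 to 204, 201 and 206, a change of -1.35 ± 0.14 (adjusted p = 4.7e-05). The BMP target Id1 changed by -1.13 ± 0.18 and Gdf10 by -1.44 ± 0.15. Inhba, the activin A subunit, at least 13.8-fold higher, was counted with the activated fibroblasts and not in this list. The activin subunits Inhba and Inhbb and these BMP genes thus moved apart. Of 31 genes of Wnt, Notch and hedgehog signalling, 0 were higher and 2 lower, Wnt5b among them with -1.25 ± 0.24, and the lower count lay between 0 and 1 under several other settings. In the list of 20 genes of corticosteroid response and clock, 0 were higher and 5 lower, with a median of -0.46. Of its defining genes, Fkbp5 and Tsc22d3 were not called, with -0.23 ± 0.18 and -0.83 ± 0.305 (adjusted p = 0.371 and 0.0657). Dbp was called with -1.29 ± 0.39 (adjusted p = 0.0296), but its adjusted p reached 0.115 when single arrays were left out. Hsd11b1, which makes active corticosterone, went from 1619, 2885 and 2017 to 638, 693 and 973, a change of -1.49 ± 0.25 (adjusted p = 0.00143), and the clock repressor Cry2 changed by -1.48 ± 0.26.

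In the neutrophil list 12 of 15 genes were higher and 1 lower, with a median of 2.09, against 3.94 on day 1 (7 of 8 higher among genes present on all 9 arrays). S100a8 and S100a9, which define the list, rose by 4.11 ± 0.32 and 3.75 ± 0.29 (adjusted p = 7.22e-06 and 6.33e-06). Fpr2, the formyl peptide receptor that guides neutrophils, went from 129, 140 and 126 to 1529, 2179 and 1931, a rise of 3.82 ± 0.19 (adjusted p = 2.46e-07), while Il1r2, the decoy receptor of interleukin-1, changed by -1.01 ± 0.18. In the list of monocytes and myeloid chemokine receptors 12 of 24 were higher and 1 lower, with a median of 1.03. Ccr2, the receptor that draws monocytes from blood, went from 665, 941 and 725 to 4975, 3709 and 3900, a rise of 2.44 ± 0.22 (adjusted p = 1.82e-05). The C-type lectins Clec4d and Clec4e, sensors of microbes and dead cells, rose by 3.20 ± 0.24 and 3.03 ± 0.21. Ace, the peptidase that also marks patrolling monocytes and endothelium, changed by -1.49 ± 0.20.

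Of 35 macrophage genes, 8 were higher and 6 lower, with a median of 0.26. Cd5l, a secreted scavenger protein that keeps macrophages alive, went from 115, 343 and 239 to 3624, 3081 and 3045, a rise of 3.94 ± 0.30 (adjusted p = 5.27e-06). Its day 1 signals were 752, 798 and 791, between both days. The Fc receptors Fcgr1 and Fcgr4 rose by 3.23 ± 0.15 and 3.36 ± 0.16, the scavenger receptor Msr1 by 3.13 ± 0.21, and the pan-macrophage markers Adgre1 and Cd68 by 1.40 ± 0.15 and 1.30 ± 0.14. Genes of resident macrophages were among those that fell: Retnla, a secreted protein of alternatively activated cells, went from 28609, 28617 and 28049 to 9526, 9563 and 7920, a change of -1.66 ± 0.12 (adjusted p = 4.21e-06). The lectin Cd209d changed by -1.55 ± 0.20 (adjusted p = 0.000251). The mannose receptor Mrc1 changed by 0.48 ± 0.15, below the 2-fold limit.

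Of 34 genes of lipid-handling and phagocytic macrophages, 11 were higher and 0 lower, with a median of 0.49 (7 of 30 higher among genes present on all 9 arrays). Trem2, a lipid receptor of such cells, went from 123, 369 and 162 to 1535, 1228 and 1137, and its day 1 signals were 436, 220 and 202. Only the mice of day 3 stood apart for Trem2. Apoc2, the cofactor of lipoprotein lipase, rose by 3.34 ± 0.29, the scavenger receptor Olr1 by 1.80 ± 0.28 and galectin-3, Lgals3, by 1.30 ± 0.19 (adjusted p from 1.62e-05 to 0.000783). Gpnmb, often named with these cells, changed by -0.09 ± 0.14 (adjusted p = 0.686).

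Arg1, the arginase that competes for the substrate of nitric oxide synthase, had signals of 4.01, 1.92 and 22.2 on day 0, with no array present, and 6449, 8670 and 6581 on day 3. It was at least 588-fold higher (adjusted p = 1.84e-06). Its isoenzyme Arg2 went from 461, 741 and 696 to 3870, 3743 and 3701, a rise of 2.61 ± 0.20 (adjusted p = 6.87e-06), and Smox, which oxidizes spermine, rose by 1.47 ± 0.18. Of 17 genes of arginine, polyamine and proline metabolism, these and Acod1, which makes itaconate, were the 4 called, all higher, and the median was 0.09.

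Among 28 genes of antioxidants, iron and metallothioneins, 6 were higher and 1 lower, with a median of 0.38. The iron exporter Slc40a1 went from 565, 549 and 511 to 1537, 1566 and 1380, a rise of 1.46 ± 0.18 (adjusted p = 0.000142), and had changed by 0.13 on day 1. The phagosomal metal transporter Slc11a1 rose by 1.47 ± 0.16, the zinc and iron importer Slc39a14 by 1.66 ± 0.22 and the cystine carrier Slc7a11 by 2.18 ± 0.36. Heme oxygenase, Hmox1, changed by 0.35 ± 0.18 (adjusted p = 0.169). In the 21 genes of prostaglandin and leukotriene synthesis, 4 were higher and 2 lower, with a median of 0.18. Alox5ap, needed for leukotrienes, went from 2997, 2655 and 3194 to 10366, 9773 and 8586, a rise of 1.70 ± 0.12 (adjusted p = 3.41e-06), and the lipase Pla2g7 rose by 1.98 ± 0.14. The secreted phospholipase Pla2g2d changed by -1.89 ± 0.18 and cyclooxygenase-2, Ptgs2, by 0.40 ± 0.17. Coagulation factors F7 and F10, present on 0 day 0 arrays, were at least 4.39-fold and 6.99-fold higher, and the chaperone Clu changed by -1.78 ± 0.39 (adjusted p = 8.26e-05, 0.00634 and 0.00686). They belong to a list of 24 genes of complement and coagulation with 4 higher and 1 lower (2 higher among genes present on all 9 arrays).

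Of 23 chemokine genes, 8 were higher, 4 lower and 11 not called, with a median of 0.51. Cxcl5, which draws neutrophils, went from 112, 95.5 and 137 to 6836, 11005 and 7879, a rise of 6.21 ± 0.20 (adjusted p = 1.6e-08). The lymphocyte chemokine Cxcl13 went from 7017, 7630 and 6204 to 2581, 2696 and 3300, a change of -1.28 ± 0.14 (adjusted p = 7.1e-05), after 12825, 14071 and 10362 on day 1. Ccl22 changed by -1.53 ± 0.24 and Xcl1 by -1.51 ± 0.22. The monocyte chemokine Ccl2 was bright on both days, at 15516, 19942 and 17156 on day 0 and 17684, 20491 and 21058 on day 3, and changed by 0.17 ± 0.11 (adjusted p = 0.278), whereas Ccl12, another ligand of Ccr2, rose by 1.64 ± 0.18. In the list of inflammatory cytokines and receptors 11 of 32 were higher and 0 lower, with a median of 0.38. Il11, a cytokine of stromal cells, went from 54, 64 and 80.2 to 854, 1278 and 1045 and rose (adjusted p = 6.87e-06). The growth factor Csf2 of myeloid cells rose by 2.07 ± 0.22 and Il1b by 2.06 ± 0.18. Il13ra2, the decoy receptor of interleukin-13, was at least 5.7-fold higher (adjusted p = 0.00359).

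Of 27 T cell genes, 0 were higher and 14 lower, all 27 had a negative change, and the median was -1.13. The T cell receptor subunit Cd3g went from 4032, 5926 and 4239 to 1299, 1402 and 1943, a change of -1.61 ± 0.30 (adjusted p = 0.00241), and Cd8a from 1156, 1094 and 1170 to 361, 331 and 450, a change of -1.59 ± 0.34 (adjusted p = 0.00582). Cd3e, another subunit, changed by -0.81 ± 0.34 (adjusted p = 0.108). The groups did not overlap for any of the 3. The T cell count was 7 without day 0 replicate 2, 6 without day 0 replicate 3, 6 without day 3 replicate 1 and 4 without day 3 replicate 2. Of 23 genes of B cells and plasma cells, 0 were higher and 14 lower, with a median of -1.19. The B cell marker Ms4a1 went from 7251, 6009 and 5217 to 2738, 1466 and 3004, a change of -1.41 ± 0.30 (adjusted p = 0.00595), and Jchain, which joins secreted antibodies, went from 4323, 1589 and 1268 to 301, 185 and 613. Cd79a, which defines the list, changed by -0.90 ± 0.34 (adjusted p = 0.0738) and was not called. The B cell count was 4 without day 0 replicate 1, 7 without day 3 replicate 1 and 5 without day 3 replicate 2.

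Of 10 tested genes of lymph node vessels and stroma, 1 was higher and 5 lower, with a median of -0.90 (2 lower without day 3 replicate 2). Glycam1, the L-selectin ligand of high endothelial venules, had signals of 4754, 6369 and 6767 on day 0 and 1289, 562 and 1033 on day 3. The mean log2 signal of the lymph node list relative to day 0 was -0.52, -0.96 and -0.62 on day 3, whereas the day 0 mice lay between -0.04 and 0.06. In the same order, the day 3 means were -0.89, -1.53 and -0.69 for the B cell list and -1.32, -1.24 and -0.78 for the T cell list. On day 1 the means were -0.64, -0.16 and 0.15 for the lymph node list and -1.255, -0.86 and -0.22 for the B cell list. For the T cell list they were -2.105, -0.82 and -0.46. These lists ranked the mice alike on day 1 and differently on day 3. With 3 mice per day, the order of the mice cannot tell whether these lists move together. On day 0 the lymph node means lay too close to each other to rank the mice. The part of lymph node tissue in the lymphoid falls was not tested. Bst1, an ectoenzyme of stroma and myeloid cells, went the other way with 2.43 ± 0.18. It is included in the lymph node mean, which is therefore not a measure of lymph node content alone.

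Among 18 genes of NK and cytotoxic cells, 1 was higher and 4 lower, with a median of -0.48, and the granzymes divided. Gzmc changed by -1.34 ± 0.30 and the protease Ctsw by -1.42 ± 0.27 (adjusted p = 0.00747 and 0.00326). Gzma went from 648, 888 and 709 to 1505, 1116 and 2142, a rise of 1.05 ± 0.22 (adjusted p = 0.00459), which was under 2-fold without day 0 replicate 1 or day 3 replicate 3. Gzmb changed by 0.87 ± 0.24, below the 2-fold limit. Of 25 genes of dendritic cells and MHC class II, 0 were higher and 4 lower (2 lower without day 3 replicate 2), with a median of -0.61. Itgae, the integrin of tissue dendritic and T cells, changed by -1.69 ± 0.30, Siglech, of plasmacytoid dendritic cells, by -1.12 ± 0.21 and the class II chain H2-Ab1 by -0.86 ± 0.15. Of 14 genes of mast cells, eosinophils and basophils, 0 were higher and 3 lower, with a median of -0.46. Ms4a2, which defines the list, was at least 1.92-fold lower (adjusted p = 0.036), below the 2-fold limit. The mast cell proteases Mcpt4 and Cpa3 changed by -1.05 ± 0.15 and -1.05 ± 0.16 (adjusted p = 0.000564 and 0.00081), with -0.25 and -0.02 on day 1. Rnase2a, a ribonuclease counted in this list, had signals of 1277, 1592 and 1160 on day 0 and 164, 163 and 158 on day 3, after 1570, 904 and 532 on day 1. Which cells its fall came from was not tested.

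**Figure D4:**
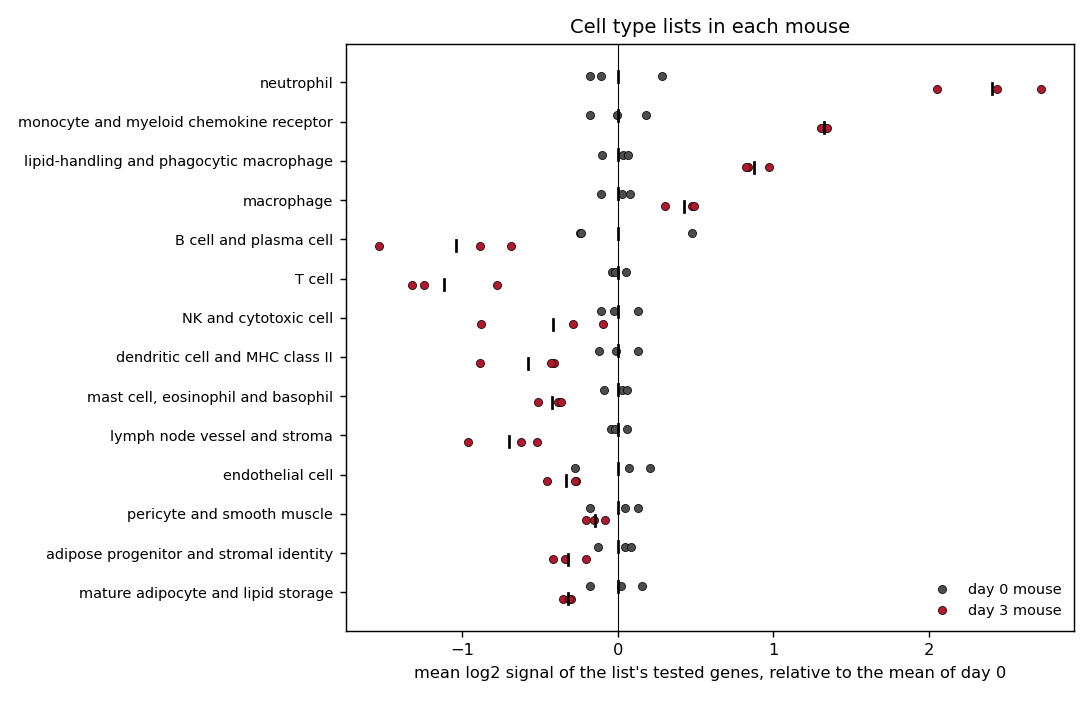
Mean log2 signal over the tested genes of 14 cell type lists, with the day 0 mean set to 0 (x axis). Dots are single mice and bars the mean of 3 mice. For the neutrophil list the day 3 mice have values of 2.44, 2.72 and 2.05, and for the T cell list -1.32, -1.24 and -0.78.

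Of 35 endothelial genes, 1 was higher and 3 lower, 27 had a negative change, and the median was -0.28 (8 lower without day 0 replicate 1, 5 without day 3 replicate 1 and 1 without day 3 replicate 3). With no limit on the fold 12 were lower. The junction genes Pecam1 and Cdh5 changed by -0.15 ± 0.15 and 0.28 ± 0.13, and neither was called. Apln, the peptide of sprouting tip cells, went from 333, 332 and 374 to 958, 1563 and 990, a rise of 1.72 ± 0.29 (adjusted p = 0.00131). Ptprb, a phosphatase that restrains the Tie2 receptor, changed by -1.14 ± 0.20 and the capillary gene Cd300lg was at least 2.94-fold lower (adjusted p = 0.00189 and 0.00014). Of 17 genes of pericytes and smooth muscle, 1 was higher and 2 lower, with a median of -0.34. Myh11, the myosin of mature smooth muscle, went from 1347, 1612 and 1721 to 550, 394 and 394, a change of -1.82 ± 0.20 (adjusted p = 8.23e-05), and the adhesion molecule Mcam rose by 1.65 ± 0.17. Pdgfrb changed by 0.18 ± 0.14 and Rgs5 by -0.50 ± 0.17 (adjusted p = 0.361 and 0.0456), and neither was called. Of 9 genes of lymphatic endothelium 1 was higher, Pdpn with 1.35 ± 0.18, which fibroblasts and macrophages also express, while 7 had a negative change, 5 were lower with no limit on the fold, and the median was -0.80. The lymphatic genes Lyve1 and Prox1 changed by -0.71 ± 0.13 and -0.80 ± 0.29 (adjusted p = 0.00272 and 0.0614), with 0.15 and -1.10 on day 1.

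Of 30 growth factors and receptors of vessels and repair, 7 were higher and 1 lower, with a median of 0.29. Ereg, a ligand of the EGF receptor, went from 61.9, 52.7 and 35.5 to 1521, 2729 and 1665. Ccn2, the connective tissue growth factor, went from 792, 555 and 468 to 4835, 5671 and 3762, a rise of 2.99 ± 0.21 (adjusted p = 3.41e-06). The groups lay apart in both. Pgf, placental growth factor, a ligand of the receptor Flt1, went from 348, 289 and 490 to 1046, 1375 and 1232, a rise of 1.72 ± 0.22 (adjusted p = 0.000202). Osm and Lif, cytokines of the interleukin-6 family, rose by 1.74 ± 0.19 and 1.40 ± 0.26, and Hgf, hepatocyte growth factor, by 1.05 ± 0.21. Vegfa read 796, 778 and 811 on day 0 and 1308, 1759 and 1120 on day 3, a change of 0.79 ± 0.22 (adjusted p = 0.0233) below the 2-fold limit. Its adjusted p reached 0.102 when single arrays were left out, and another of its probe sets changed by 0.46. Kdr, the receptor of Vegfa, changed by -0.68 ± 0.13. Igf2 changed by -1.11 ± 0.15 (adjusted p = 0.000352).

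Of 21 genes of glycolysis and lactate transport, 7 were higher, 0 lower and 14 not called, with 4 negative changes and a median of 0.69, against 0.73 on day 1 (4 of 11 higher without shared probe sets). Tpi1, triose phosphate isomerase, went from 2525, 3016 and 2412 to 7093, 8847 and 8306, a rise of 1.61 ± 0.16 (adjusted p = 3.71e-05). Pkm, pyruvate kinase, went from 1607, 2082 and 1813 to 4499, 5846 and 5111, a rise of 1.49 ± 0.15, and Pgk1 rose by 1.35 ± 0.14. Both groups were separate in each. The lactate exporter Slc16a3 rose by 1.38 ± 0.28 and Hk3, the hexokinase of myeloid cells, by 1.93 ± 0.21, while lactate dehydrogenase Ldha changed by 0.73 ± 0.13. Of 26 targets and regulators of HIF-1, the factor of the hypoxia response, 2 were higher and 0 lower. These were the oxygen sensor Egln3, from 119, 129 and 114 to 355, 448 and 541 (1.87 ± 0.19, adjusted p = 3.79e-05), and the mitophagy gene Bnip3 (1.70 ± 0.24, adjusted p = 0.000414). With no limit on the fold 9 of the 26 were higher and 1 lower, and the median was 0.33. The called genes of glycolysis above, and Plod2, P4ha2 and Lox, were counted in other lists and not here. Hif1a itself changed by 0.81 ± 0.12. Of 39 genes of the respiratory chain and ATP synthase 0 were called, with a median of 0.02, and 3 had an adjusted p under 0.05 with no limit on the fold. None of 18 genes of cholesterol synthesis and uptake and none of 26 of ER chaperones were called, with medians of -0.04 and 0.15. All 24 genes of cytosolic ribosomal proteins had a negative change, from -0.38 to -0.07, with 0 called and 7 lower with no limit on the fold.

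**Figure D5:**
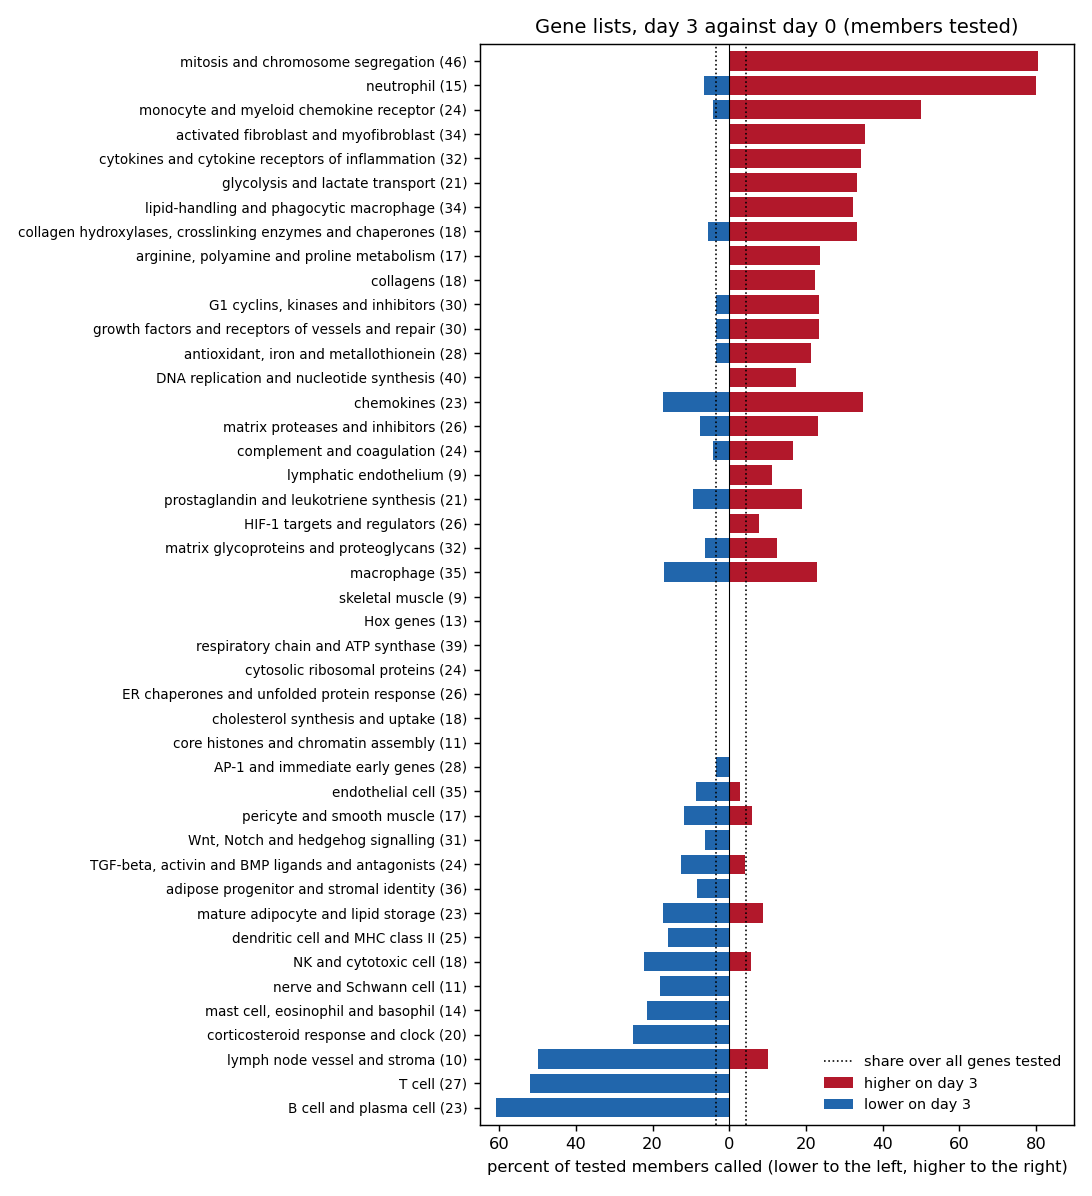
Percent of tested members called higher (red, to the right) or lower (blue, to the left) on day 3 in the gene lists with 9 or more tested members, whose number stands in brackets. Dotted lines mark the shares over all 11796 genes, 4.44% higher and 3.48% lower. The mitosis list, with 37 of 46 higher, and the B cell list, with 14 of 23 lower, stand at the ends.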

How the data were processed

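Total RNA of SVFs was labelled with biotin and hybridized to Affymetrix mouse expression arrays. The authors summarized the probe intensities with MAS5, and the deposited values are linear MAS5 signals (intensities) of 45101 probe sets, each with a detection call and its p-value. Each array was scaled by the authors to a mean of 500 after 2% of the probe sets were trimmed at each end. Scaling sets total RNA equal, so changes are relative. A genome build is not given in the sources used here. Signals were log2-transformed with no offset. The 34945 probe sets with exactly 1 gene symbol were kept where present on all 3 arrays of a day (932 with several symbols, 9160 with none and 64 controls were not used), and the brightest represented each of 11796 genes. All 9 arrays were fitted with limma 3.58.1 (lmFit, eBayes with trend) in R 4.3.3 by day, with 6 residual degrees of freedom, with two-sided p-values and Benjamini-Hochberg adjustment over all genes. Each count was recomputed with arrays centred on their median or made equal by quantiles, with 16 or 64 added before the logarithm, with other filters and choices of probe set, with weighted arrays or no trend, on the 6 arrays alone, with a replicate block, without each array, at an adjusted p under 0.01, with no limit on the fold and by the study's analysis of variance. The fit was tested on simulated data.

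The comparison, the 46 gene lists and the rule for named genes were chosen with earlier results of these data known. Named genes were drawn from the 15 largest rises and falls and up to 5 called members of a list, with up to 2 that moved the other way. These genes did not overlap between days and kept their call (adjusted p) when each array was left out. They also moved the same way in their other probe sets. Genes that define a list were eligible whatever their values, as were the 3 lowest adjusted p in a list with no call. Of 1288 listed entries, the array names 1180, and 1074 passed the filter. Not every gene that meets the rule is printed, so the printed genes are not all of the strongest changes. Among those left out are the rises of Saa3 and Ppbp (6.80 and 6.07) and the falls of Cytl1 and Inmt (-2.79 and -2.59). Each array is 1 mouse, and the number of arrays limits the precision. Replicate numbers did not pair the mice: same-numbered mice of days 0 and 3 had correlated deviations of -0.011, -0.003 and -0.125. Promoters are RefSeq sequences of 250 bases before to 50 after a start site.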

Additional observations from a re-analysis of the deposited data

How the results depend on the processing

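The counts of 524 higher and 410 lower genes stayed within 1.5 times under all alternatives run but these: with no limit on the fold they were 1600 and 1474, with 64 added to the signals 240 were lower, and by the adjusted analysis of variance 218 were lower. The cause was not tested, apart from the limit on the fold, which removes genes by construction. When each array was left out in turn, 494 to 543 genes were higher and 311 to 436 lower, and 415 and 215 of the genes called on all arrays passed both limits in every such fit (485 and 288 by the adjusted p alone). With the replicate number as a block, 527 were higher and 421 lower, and by repeated measurements with the replicate block 501 and 293, and the block changed no call of the 245 genes chosen by the rule for named genes. In the settings compared gene by gene, 0 genes called on day 3 were called in the opposite direction. The share of calls that were lower was 43.9%, and with other settings it ran from 31.6%, by the adjusted analysis of variance, to 48%, with no limit on the fold. With median centring it was 39.4% and with quantile normalization 40%. The median change of all genes was 0.02 after median centring. Of the genes named, Spock3 changed sign with no filter (1.04, adjusted p = 0.416), where a brighter probe set represented it, and Top2a without shared probe sets (-0.2204, adjusted p = 0.532). With 64 added, 22 of 245 named genes lost their call, since dim genes change less on that scale. The number of arrays and the background of dim probe sets limit what can be called: 69 of the higher genes were absent on all day 0 arrays and 41 of the lower genes on all day 3 arrays.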

Other observations

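The following gene families were chosen after their values were seen and were taken whole by their symbols, so their counts are a description. Of 6 tested CD300 genes, receptors of lipids on myeloid cells, 5 were higher and 1 lower on day 3. Cd300lf went from 196, 159 and 198 on day 0 to 722, 792 and 792 on day 3, a rise of 2.06 ± 0.16 (adjusted p = 5.43e-06), and Cd300c2 from 239, 269 and 219 to 2002, 1490 and 1765, a rise of 2.85 ± 0.18 (adjusted p = 1.62e-06). The member that was lower, Cd300lg, is the endothelial one. Of 4 tested STEAP metalloreductases, which reduce iron and copper, 2 were higher: Steap1, with signals of 58.4, 78.9 and 120 on day 0 and 756, 1059 and 639 on day 3, and Steap2, which rose by 1.76 ± 0.22 (adjusted p = 0.000221).

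Some enzymes that modify drugs, steroids and lipids were lower. Of 3 tested sulfotransferases 3 were lower, with Sult1a1 going from 2307, 2938 and 2615 to 1040, 830 and 658, a change of -1.66 ± 0.24 (adjusted p = 0.000492). The flavin monooxygenases Fmo1 and Fmo2, 2 of 3 tested, changed by -1.39 ± 0.15 and -1.47 ± 0.21. The epoxide hydrolases Ephx1 and Ephx2, 2 of 4, changed by -1.47 ± 0.14 and -1.43 ± 0.14, and the alcohol dehydrogenase Adh1, 1 of 3, by -1.46 ± 0.16. Among 12 glutathione S-transferases 1 was higher and 3 lower. The R-spondins Rspo1 and Rspo2, which amplify Wnt signals, were lower among 3 tested, with changes of -1.66 ± 0.29 and -1.91 ± 0.33 (adjusted p = 0.00172 and 0.0018). Of 6 insulin-like growth factor binding proteins, Igfbp3 rose by 1.16 ± 0.16, while Igfbp5 went from 13877, 12990 and 15861 to 5472, 5096 and 4653 and Igfbp6 changed by -1.38 ± 0.16. Of 11 genes of nerve and Schwann cells 2 were lower, with the myelin gene Mbp going from 1405, 1987 and 2316 to 668, 896 and 659, a change of -1.34 ± 0.19 (adjusted p = 0.000454). Of 13 Hox genes 0 were called, and Hoxa5 changed by -0.76 ± 0.16. The immediate early genes Fos and Jun changed by -0.14 ± 0.08 and -0.92 ± 0.14, at signals of 22351 to 26350 for Fos. In their list 1 of the 28 genes was lower, 23 had a negative change, and the median was -0.22. Of 6 genes of epithelium 1 was lower, and of 3 erythroid genes 0 were called.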
